A study of Caenorhabditis elegans with 43 samples.

Results

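The genes bath-13, scrm-4, cyn-8 and parg-2 were followed in 43 total RNA libraries of whole Caenorhabditis elegans. They are 4 of the 20182 genes in the count table and 4 of the 13295 genes tested, and all 4 passed the filter on low values. They were picked by their measured levels, because in each of them 1 strain stood apart from the others, for 3 of them already in the earlier hours of the time course. The differences between strains given here are therefore a description of what chose them and carry no test. What was not used in the choice, and is tested, is how each gene moved with developmental time within a strain.

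The strains were let-7(n2853), lin-41(xe11), lin-41(xe11);let-7(n2853), called the double mutant here, and N2, the wild type. In the epidermis of late larvae the microRNA let-7 lowers the RNA-binding protein LIN-41 and with it closes the larval programme. n2853 is a point mutation that weakens let-7 at higher temperature. xe11 changes the let-7 binding sites in lin-41, so that wild-type let-7 no longer lowers it fully. How the n2853 form of let-7 acts on lin-41 with xe11 was not tested here. Each mutant label names the alleles and no other transgene, deletion or treatment, and none of the strains carried a Cre or reporter by its label. The sources used here do not say how often a mutant strain had been outcrossed to N2. Each genotype was 1 strain, so an allele and the rest of that strain's genome cannot be told apart. All 4 strains were hatched without food, plated with Escherichia coli NA22 and grown at 25 °C. They were collected every 2 h from 18 to 36 h of development, and at 38 h as well except in let-7(n2853). Each strain had 1 library at each hour, 10 for let-7(n2853) and 11 for each other strain. The 5 hours of 18 to 26 h and the 5 of 28 to 36 h served as replicates of an early and a late window. The labels name no separate cultures, so the errors measure the spread between these libraries, which may be technical.

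The 4 genes have no known shared role. bath-13 encodes a protein with a MATH and a BTB domain, a family whose members include substrate adaptors that bring proteins to the CUL-3 ubiquitin ligase. scrm-4 belongs to the phospholipid scramblases, and its paralog scrm-1 acts in exposing phosphatidylserine on dying cells of the worm. cyn-8 encodes a cyclophilin, a peptidyl-prolyl isomerase that helps proteins fold. parg-2 encodes one of the worm's poly(ADP-ribose) glycohydrolases, enzymes that remove the poly(ADP-ribose) chains added to proteins by PARP enzymes, among other times after DNA damage.

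In the WBcel235 annotation of Ensembl all 4 are protein-coding genes on 4 different chromosomes. bath-13 (WBGene00018223) spans chromosome II from 2520842 to 2522060 on the minus strand. scrm-4 (WBGene00008681) spans chromosome I from 11680899 to 11682441 on the minus strand. Its end overlaps kpc-1, on the plus strand, by 77 bp, and it lies 2.34 Mb from lin-41 on that chromosome. cyn-8 (WBGene00000884) spans chromosome X, where let-7 also lies, from 8911293 to 8914261 on the plus strand. parg-2 (WBGene00004052) spans chromosome IV from 8712408 to 8715132 on the minus strand. The sources used here do not say whether reads were counted by strand.

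Counts per library (M, mega) ranged over 22.9 to 32.9 for let-7(n2853), 11.2 to 16.5 for lin-41(xe11), 12.7 to 25.0 for the double mutant and 12.6 to 16.1 for N2. In depth let-7(n2853) stood apart from lin-41(xe11) and N2 with no overlap, and the deposited log2 table had scaled it to another total. The sources used here give no preparation or sequencing batch, and such a batch and the let-7(n2853) genotype cannot be told apart. Defining markers of 8 tissues and germ cell types were all detected in every strain, as whole worms would give. As a check of the labels, lin-41 RNA in the late window was higher than in N2 by 1.78 ± 0.13 log2 units for let-7(n2853), 1.03 ± 0.13 for lin-41(xe11) and 1.05 ± 0.13 for the double mutant (edgeR, adjusted p = 1.67e-10, 4.64e-05 and 1.60e-05). lin-41 alone thus does not part lin-41(xe11) from the double mutant. In that window daf-12 changed by 1.21, -0.08 and 1.23 in the same strains (edgeR, adjusted p = 5.39e-10, 0.845 and 1.30e-09). mab-3 changed by -2.97, -1.83 and -1.47, and mab-10 by -1.53, -0.94 and -0.80 (edgeR, adjusted p for mab-10 = 9.04e-05, 0.113 and 0.155). Levels are counts per mega count (CPM) of a library size scaled by trimmed mean of M-values (TMM), and changes are log2 fold changes ± standard error of the fit, mutant over N2.

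**Figure D1:**
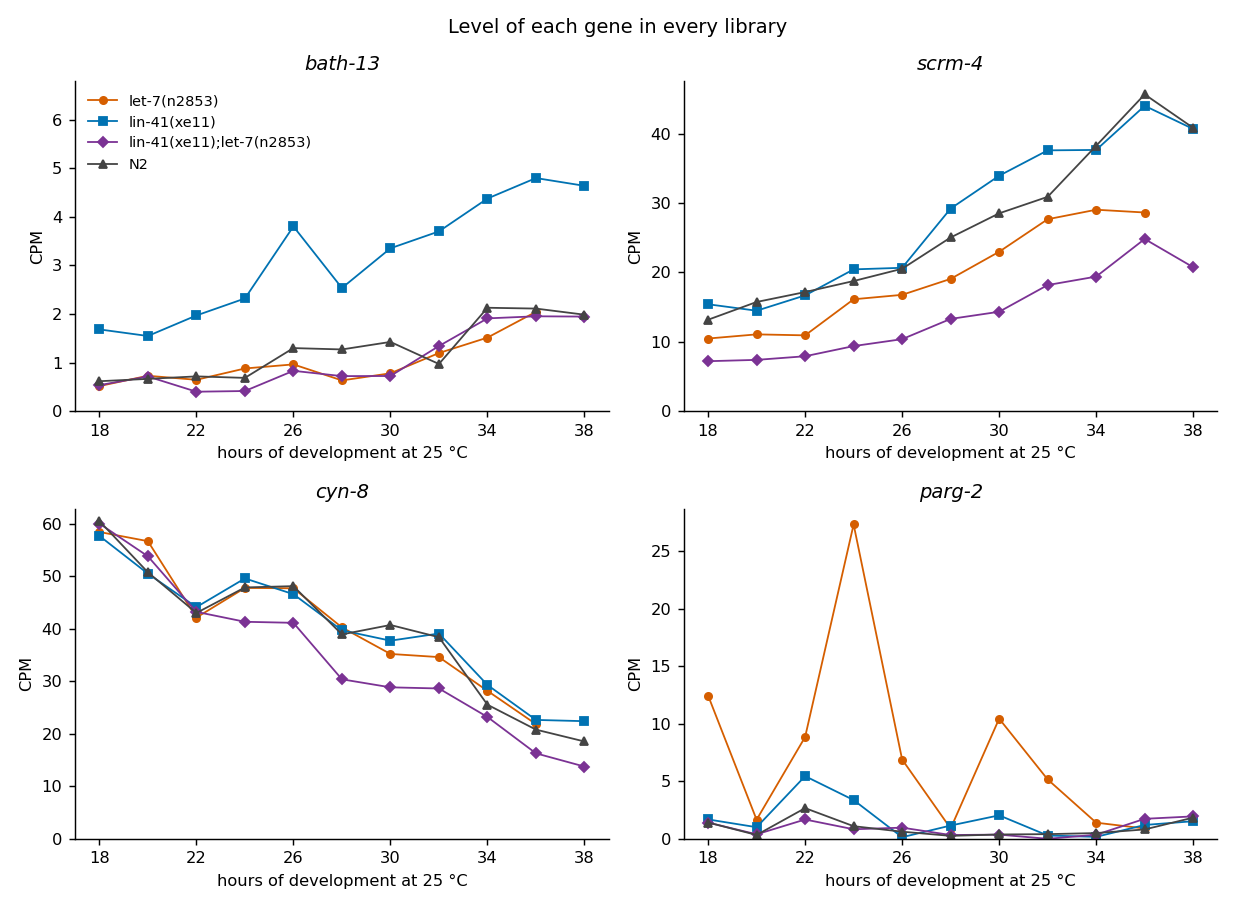
Level of bath-13, scrm-4, cyn-8 and parg-2 in CPM (vertical, linear, from 0) against hours of development (horizontal), with 1 point per library and 1 line per strain. bath-13 is highest in lin-41(xe11) and scrm-4 lowest in the double mutant at every hour, cyn-8 in the double mutant leaves the others from 24 h, and parg-2 in let-7(n2853) moves between 0.897 and 27.3 CPM.

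bath-13 RNA was higher in lin-41(xe11) than in each other strain at every hour. From 18 to 26 h it stood at 1.68, 1.55, 1.97, 2.32 and 3.805 CPM in lin-41(xe11), against 0.615, 0.664, 0.715, 0.684 and 1.30 CPM in N2. From 28 to 36 h the values were 2.54, 3.35, 3.702, 4.38 and 4.80 CPM in lin-41(xe11), against 1.27, 1.43, 0.970, 2.13 and 2.11 CPM in N2. At 38 h they were 4.64 CPM in lin-41(xe11) and 1.99 CPM in N2. With 1 library per strain and hour, lin-41(xe11) was above N2 at each hour, and the ratio to N2 ran from 1.996 at 28 h to 3.82 at 32 h. Across hours the ranges met, since N2 reached at 34 h a level that lin-41(xe11) had passed by 24 h. Of the 11 lin-41(xe11) libraries, 8 were above every N2 library of any hour.

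The double mutant carries the same xe11 allele and did not share the high bath-13 level. Its 11 libraries held between 0.399 and 1.95 CPM with a median of 0.723 CPM. The 10 let-7(n2853) libraries held between 0.515 and 2.05 CPM with a median of 0.828 CPM, and the 11 N2 libraries between 0.615 and 2.13 CPM with a median of 1.27 CPM. These 3 strains overlapped throughout, and lin-41(xe11), between 1.55 and 4.80 CPM with a median of 3.35 CPM, stood over each of them hour by hour. lin-41(xe11) had a fitted change against N2 of 1.49 ± 0.19 early and 1.25 ± 0.16 late, with 5 of 5 hours higher in both windows. In the double mutant it was -0.45 ± 0.23 and -0.29 ± 0.19, and in let-7(n2853) it was -0.07 ± 0.20 and -0.41 ± 0.17. The double mutant lay under lin-41(xe11) by -1.94 ± 0.19 in the early and -1.54 ± 0.17 in the late window, lower at 5 of 5 hours in each.

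bath-13 was a scarce RNA, so single libraries are imprecise. The reads behind a value numbered 20 to 76 in lin-41(xe11), 13 to 57 in let-7(n2853), 6 to 29 in the double mutant and 10 to 30 in N2. At 28 h, the hour of the smallest ratio, the 95% Poisson interval was 1.75 to 3.56 CPM in lin-41(xe11) and 0.776 to 1.96 CPM in N2, and the intervals overlap. The intervals also overlap at 18 and 20 h. At 24 h the interval was 1.58 to 3.29 CPM in lin-41(xe11) and 0.328 to 1.26 CPM in N2, and these do not overlap. Such intervals cover counting error only.

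bath-13 rose with developmental time in all 4 strains. The trend was 0.17 ± 0.04 log2 units per 2 h for let-7(n2853), 0.16 ± 0.03 for lin-41(xe11), 0.23 ± 0.04 in the double mutant and 0.19 ± 0.03 in N2. edgeR's quasi-likelihood test gave an adjusted p of 0.00416 for let-7(n2853), 0.000308 for lin-41(xe11), 0.000566 in the double mutant and 0.0003 in N2. Over all genes tested, a rise was called for 22.5% for let-7(n2853), 26.7% for lin-41(xe11), 26.3% in the double mutant and 31.7% in N2, so a called rise by itself is common here. With falling genes included, the shares were 40.6%, 48.2%, 46.5% and 55.9% in the same strains. Set against the N2 trend, the change in lin-41(xe11) was as large as 15.6 h of the N2 course in the early window and 13.1 h in the late window.

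scrm-4 RNA was lower in the double mutant than in each other strain at every hour, by a nearly steady factor, 0.495 times N2 in the early and 0.534 times N2 in the late window. From 18 to 26 h it stood at 7.19, 7.38, 7.91, 9.37 and 10.4 CPM in the double mutant, against 13.2, 15.7, 17.2, 18.8 and 20.5 CPM in N2. From 28 to 36 h the values were 13.3, 14.3, 18.2, 19.4 and 24.8 CPM in the double mutant, against 25.0, 28.5, 30.9, 38.3 and 45.7 CPM in N2. At 38 h they were 20.7 CPM in the double mutant and 40.8 CPM in N2. The ratio to N2 stayed between 0.461 at 22 h and 0.588 at 32 h over the 11 hours. The first 5 hours of the double mutant lay under every N2 library, and its later hours fell within the range that N2 covered earlier. Each double mutant value rested on 114 to 343 reads, and each N2 value on 214 to 562.

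The single mutants did not look alike for scrm-4. lin-41(xe11) ran from 14.5 to 44.0 CPM with a median of 29.2 CPM and crossed N2, which ran from 13.2 to 45.7 CPM with a median of 25.0 CPM. let-7(n2853) ran from 10.5 to 29.0 CPM with a median of 17.9 CPM and lay under N2 at all 10 hours, between the double mutant and N2 each time. The fitted change was -0.39 ± 0.07 in both windows in let-7(n2853), 0.04 ± 0.07 early and 0.14 ± 0.07 late in lin-41(xe11), and -1.01 ± 0.07 early and -0.90 ± 0.07 late in the double mutant. So the double mutant was lower than the sum of both single-mutant changes by -0.66 ± 0.10 in the early and -0.65 ± 0.09 in the late window. For lin-41 itself that difference was 0.01 ± 0.17 early and -1.76 ± 0.175 late. The sum is therefore no general expectation for the double mutant. In RNA of whole worms, fewer cells of a type that holds a transcript and less of it per cell cannot be told apart.

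scrm-4 rose with time at nearly the same rate in every strain, so the lower level in the double mutant ran alongside N2. The trend was 0.19 ± 0.02 log2 units per 2 h for let-7(n2853), 0.17 ± 0.02 for lin-41(xe11), 0.19 ± 0.02 in the double mutant and 0.18 ± 0.01 in N2 (edgeR, adjusted p = 1.52e-05, 7.09e-06, 1.96e-06 and 3.38e-07). Whether these rates differ was not tested. The change in the double mutant was as large as -11.3 h of the N2 course in the early and -10.1 h in the late window. At 18 h the double mutant, with 7.19 CPM, lay under the lowest N2 library of the series, with 13.2 CPM, so no sampled hour of N2 held that level.

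cyn-8 RNA was lower in the double mutant than in N2 at every hour from 24 h and stood close to N2 in the first 3 hours, so its difference was not constant. From 18 to 22 h it stood at 60.1, 53.8 and 43.2 CPM in the double mutant, against 60.6, 50.8 and 43.03 CPM in N2, and the strains crossed. At 24 and 26 h it was 41.4 and 41.2 CPM in the double mutant, against 47.9 and 48.1 CPM in N2. From 28 to 36 h the values were 30.4, 28.9, 28.6, 23.2 and 16.3 CPM in the double mutant, against 38.9, 40.7, 38.4, 25.6 and 20.8 CPM in N2, and at 38 h 13.8 CPM in the double mutant and 18.5 CPM in N2. The double mutant was thus lower than N2 at every hour from 24 h, with a ratio between 0.708 at 30 h and 0.908 at 34 h. Before that it was 0.992 at 18 h and above 1 at 20 and 22 h.

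The fitted change of cyn-8 in the double mutant was -0.07 ± 0.05 in the early window, lower at 3 of 5 hours, and -0.36 ± 0.06 in the late window, lower at 5 of 5. Late minus early it was -0.29 ± 0.08. Neither single mutant shared the late difference: the late change was -0.02 ± 0.05 in let-7(n2853) and 0.05 ± 0.06 in lin-41(xe11). let-7(n2853) ran from 21.9 to 58.5 CPM, lin-41(xe11) from 22.4 to 57.7 CPM, the double mutant from 13.8 to 60.1 CPM and N2 from 18.5 to 60.6 CPM, so all 4 ranges overlapped. Each value rested on at least 205 reads.

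cyn-8 fell with developmental time in all 4 strains. The trend was -0.14 ± 0.02 log2 units per 2 h for let-7(n2853), -0.13 ± 0.02 for lin-41(xe11), -0.20 ± 0.02 in the double mutant and -0.15 ± 0.02 in N2 (edgeR, adjusted p = 0.000142, 6.03e-05, 1.67e-06 and 0.000116). A fall was called for 18.1% of all genes tested for let-7(n2853), 21.5% for lin-41(xe11), 20.1% in the double mutant and 24.2% in N2. The change in the double mutant was as large as 0.9 h of the N2 course in the early and 4.7 h in the late window.

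**Figure D2:**
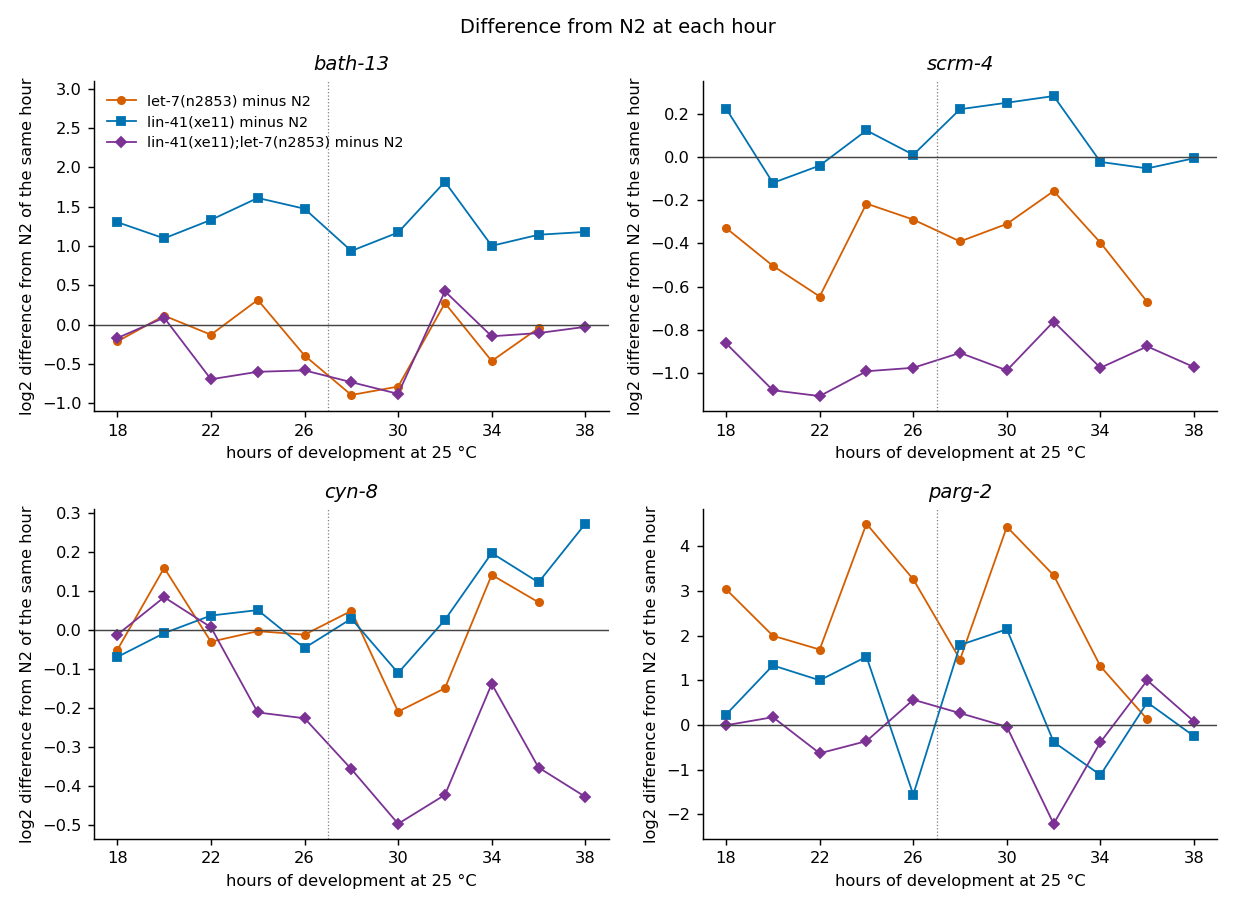
Difference of each mutant from N2 of the same hour (vertical, log2 CPM with a prior count of 2) against hours of development (horizontal), 1 point per library pair; the dotted line parts the early from the late window. The line of lin-41(xe11) for bath-13 stays between 0.94 and 1.82 and that of the double mutant for scrm-4 between -1.11 and -0.76, while that of the double mutant for cyn-8 starts at -0.01 and that of let-7(n2853) for parg-2 runs between 0.13 and 4.51.

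parg-2 RNA was higher in let-7(n2853) than in N2 at all 10 hours, and the size of the difference changed from hour to hour. From 18 to 26 h it stood at 12.45, 1.66, 8.85, 27.3 and 6.89 CPM in let-7(n2853), against 1.42, 0.332, 2.67, 1.10 and 0.618 CPM in N2. From 28 to 36 h the values were 0.898, 10.4, 5.16, 1.40 and 0.897 CPM in let-7(n2853), against 0.254, 0.375, 0.404, 0.497 and 0.812 CPM in N2. The ratio to N2 ran from 1.10 at 36 h to 27.8 at 30 h. At 28, 34 and 36 h the 95% Poisson intervals of let-7(n2853) and N2 overlap. At 36 h they were 0.58 to 1.32 CPM in let-7(n2853), on 25 reads, and 0.39 to 1.49 CPM in N2, on 10 reads. The let-7(n2853) libraries had peaks at 18, 24 and 30 h and low points at 20, 28 and 36 h, and 6 of the 10 lay above every N2 library.

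The fitted parg-2 change in let-7(n2853) was 3.16 ± 0.55 in the early and 2.73 ± 0.71 in the late window, with errors that were large because the hours differed so much. In lin-41(xe11) it was 0.86 ± 0.62 and 1.03 ± 0.89, and in the double mutant, which carries n2853 as well, -0.15 ± 0.68 and 0.29 ± 0.97. The lin-41(xe11) libraries held between 0.136 and 5.45 CPM with a median of 1.20 CPM. The double mutant libraries held between 0 and 1.95 CPM with a median of 0.827 CPM, and the N2 libraries between 0.254 and 2.67 CPM with a median of 0.618 CPM. These 3 strains overlapped. The double mutant library of 32 h had 0 parg-2 reads, and 3 reads there would be 0.251 CPM. Outside let-7(n2853) most values rested on few reads, 4 to 41 in N2, against 25 to 778 in let-7(n2853).

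parg-2 had no called linear trend in any strain. edgeR gave -0.32 ± 0.18 log2 units per 2 h for let-7(n2853), -0.16 ± 0.12 for lin-41(xe11), 0.02 ± 0.10 in the double mutant and -0.05 ± 0.09 in N2 (adjusted p = 0.201, 0.277, 0.914 and 0.670). At an unadjusted p under 0.05 the count was also 0 of 4 strains. When a cosine and sine of period 8 h were added to the model, a fall was called in let-7(n2853) at -0.28 ± 0.09 and in lin-41(xe11) at -0.24 ± 0.08 (edgeR, adjusted p = 0.0285 and 0.0344).

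A few other things also differed between let-7(n2853) and N2, and their part in the parg-2 level was not tested. They are given over windows or over all hours and were not matched to parg-2 hour by hour. Depth, given above, was one of them. Of the 5 intestinal markers, all detected, 1 was lower than in N2 in the early window and 2 in the late window, and their summed level was 924 to 1366 CPM in let-7(n2853) against 1278 to 2099 CPM in N2 from 28 to 36 h. Of the 4 oocyte markers, all detected, 4 were lower in the late window, with summed levels of 109.6 to 406.5 CPM in let-7(n2853) and 124.6 to 628.8 CPM in N2. Of the 5 germline markers, 1 was lower early and 4 late, with late sums of 557 to 1054 CPM in let-7(n2853) and 608 to 1340 CPM in N2. Of the 4 pharyngeal markers, 2 were lower in each window, with late sums of 614 to 913 CPM in let-7(n2853) and 636 to 1150 CPM in N2. Of the 5 neuronal markers, 1 was higher and 1 lower early, and 2 were higher and 2 lower late, with late sums of 234 to 343 CPM in let-7(n2853) and 239 to 363 CPM in N2. Of the 6 epidermal markers 1 was lower in each window, and of the 5 sperm markers 1 was lower late by edgeR. Early, edgeR and DESeq2 called 0 sperm markers, while limma on the deposited log2 values called 5. Their early sums were only 0.251 to 0.372 CPM in let-7(n2853) and 0.199 to 0.556 CPM in N2. Such limma calls of scarce genes in let-7(n2853) carry the unequal scaling of the deposited values and are not relied on. Of the 4 body wall muscle markers 0 were called in either window by edgeR, DESeq2 or limma, with 0 early and 1 late at an unadjusted p under 0.05. Set against N2, let-7(n2853) had 18.5% of all genes tested called early (8.79% higher, 9.73% lower) and 23.0% late (10.4% higher, 12.6% lower).

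To place the 4 patterns among all genes, genes were counted whose level in 1 strain lay beyond every library of the other 3 strains at any hour. None of the 4 was among them. let-7(n2853) had 7 such higher genes (0.0527%) and 25 lower ones (0.188%), N2 had 1 higher gene (0.00752%), and lin-41(xe11) and the double mutant had 0 in either direction (0.0%); no test was made of these counts. The largest gaps in let-7(n2853) were F35H10.6, at 20.3 to 32.4 CPM in let-7(n2853) against 7.94 to 15.1 CPM in the others, and Y82E9BR.3, at 352 to 427 CPM in let-7(n2853) against 610.3 to 964 CPM in the others. The ribosomal protein genes rps-27 and rps-29 were also among the 5 largest gaps on the low side. The 1 gene of N2 was zig-2, at 0.873 to 3.42 CPM in the mutants and 3.68 to 5.05 CPM in N2.

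Since 3 of the 4 genes change with time, a count hour by hour was added after seeing the data. It asked in which genes a strain was higher, or lower, than each of the other 3 strains at each of the 10 shared hours. For lin-41(xe11), 2 genes were higher (0.015%), and bath-13 had the larger gap of the pair, never under 0.94 log2 units, against 0.02 for WBGene00019984, a gene with no symbol in the tables used. For the double mutant 1 gene was lower (0.00752%), and it was scrm-4, with a gap never under 0.21. cyn-8 ranked 40th there, because the double mutant was not the lowest strain at 18, 20 or 22 h. let-7(n2853) had 263 higher genes (1.98%) and 418 lower ones (3.14%), and parg-2 was not among them, because lin-41(xe11) passed it at 28 h and both lin-41(xe11) and the double mutant at 36 h. The double mutant had 1 higher gene (0.00752%), and N2 had 3 higher (0.0226%) and 2 lower (0.015%). The members were chosen for these strain differences, so their places in the counts are no separate evidence.

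Timing of the strains was set beside these differences. Each library was given an age, the point of the N2 course that its other genes most resembled. From 18 to 26 h the age minus the hour averaged -0.80 ± 0.72 h in let-7(n2853), -0.34 ± 0.34 h in lin-41(xe11), -0.42 ± 0.75 h in the double mutant and -0.22 ± 0.22 h in N2 (SD, n = 5 each). From 28 to 36 h it averaged -0.74 ± 0.52 h, 0.34 ± 0.73 h, 0.14 ± 0.86 h and -0.02 ± 0.37 h in the same strains. The N2 course was fitted through these same N2 libraries, so their ages lie near their hours by construction. The N2 spread is therefore no measure of the error of the mutant ages. No library of these hours lay more than 1.6 h from its hour, but ages were searched only from 18 to 38 h. An 18 h library could thus not be given an earlier age, and those of let-7(n2853), the double mutant and N2 sat at that limit. The weakest match was at 30 h in let-7(n2853), with r = 0.657. The spans of the N2 course given above were 15.6 and 13.1 h for bath-13, -11.3 and -10.1 h for scrm-4, and 0.9 h early and 4.7 h late for cyn-8. Each span takes the N2 trend as a straight line. In N2, bath-13 went from 2.11 CPM at 36 h to 1.99 CPM at 38 h, and scrm-4 from 45.7 to 40.8 CPM. For parg-2, with no called trend in N2, no such span was taken. The part of timing in the differences was not tested beyond these values and the model with age.

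With age in place of the hour in the model, each change stayed within its spread between hours. The change of bath-13 in lin-41(xe11) was 1.57 ± 0.19 early and 1.17 ± 0.18 late. The change of scrm-4 in the double mutant was -1.01 ± 0.07 early and -0.90 ± 0.07 late, and that of cyn-8 was -0.08 ± 0.07 early and -0.34 ± 0.07 late. parg-2 in let-7(n2853) changed by 3.53 ± 0.75 early and 2.77 ± 0.89 late.

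**Figure D3:**
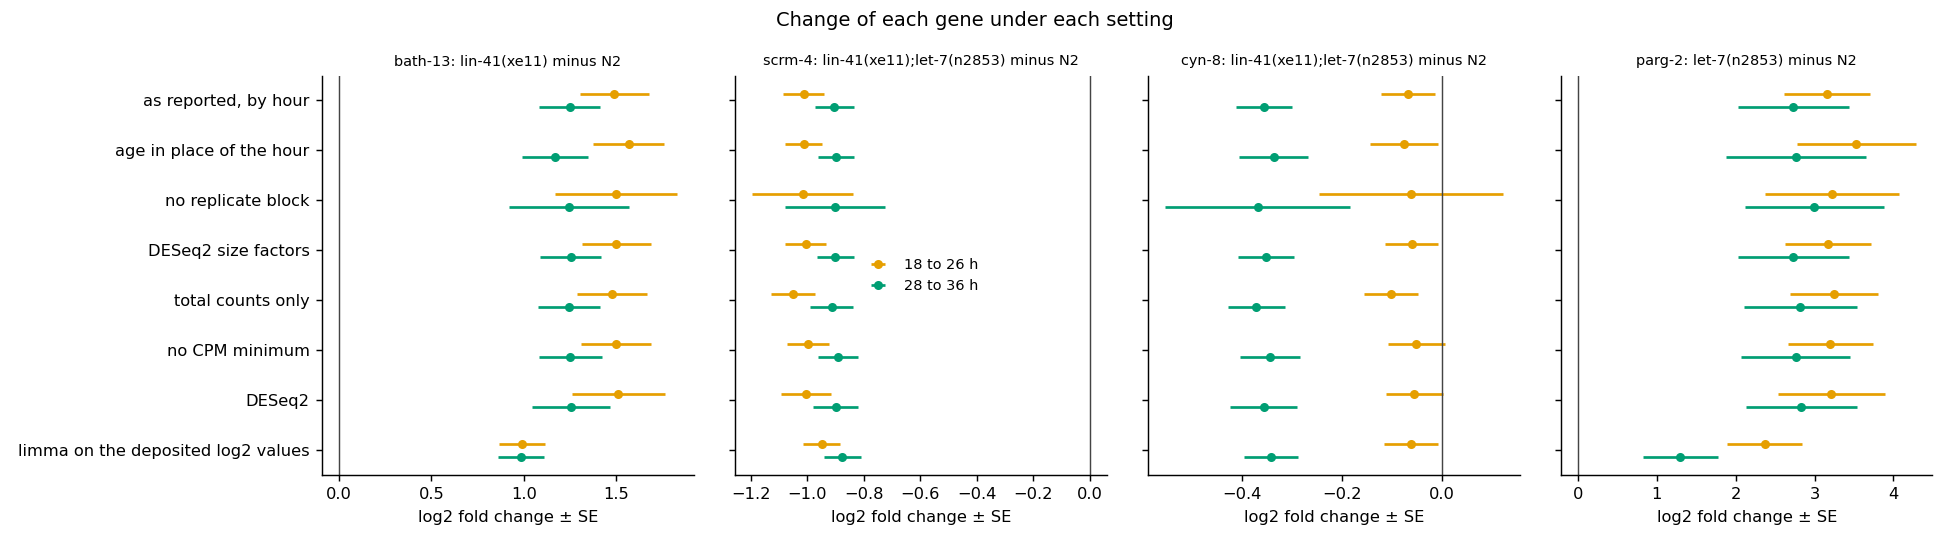
Fitted log2 fold change ± SE (horizontal) of each gene in the strain that stood apart, relative to N2, under each setting (vertical), in the early and late windows. Every setting leaves bath-13, scrm-4 and parg-2 on the same side of 0. The deposited log2 values carry a pseudocount of 8 and another scaled total in let-7(n2853). They give a smaller change for the 2 scarce genes, 0.99 and 0.98 for bath-13 and 2.37 and 1.30 for parg-2.

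To see whether the genes next to each member differed as it did, the 10 tested genes on either side were looked up in the fit across all genes. Around bath-13, 0 of 20 were called in lin-41(xe11) by edgeR, DESeq2 or limma in either window, with 1 and 2 at an unadjusted p under 0.05; over all genes, 0.0677% were called early (0.0451% higher, 0.0226% lower) and 0.361% late (0.105% higher, 0.256% lower). The neighbours span 306 kb and had a median change of -0.02 early and -0.01 late. Of the nearest, gbas-1 changed by 0.05 ± 0.06 early and 0.17 ± 0.06 late (adjusted p = 0.962 and 0.309). K02F6.7, its start 4.38 kb away, gave 1.67 ± 0.78 early and 0.21 ± 0.16 late (adjusted p = 0.805 and 0.702). The next gene on that side, K02F6.3, named after its values were seen, gave 1.59 ± 1.30 early and -0.31 ± 0.21 late (adjusted p = 0.910 and 0.680), so both stood as high as bath-13 early, with errors several times larger, and not late.

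Around scrm-4, 0 of 20 neighbours within 325 kb were called in the double mutant by edgeR, DESeq2 or limma in either window, with 4 and 2 at an unadjusted p under 0.05. Over all genes, 0.143% were called early (0.0827% higher, 0.0602% lower) and 0.888% late (0.308% higher, 0.579% lower). Its overlapping neighbour kpc-1, which encodes a proprotein convertase, changed by -0.05 ± 0.07 early and -0.12 ± 0.07 late (adjusted p = 0.967 and 0.539). Its other neighbour is its own paralog scrm-1, which changed by 0.07 ± 0.08 early and -0.17 ± 0.08 late (adjusted p = 0.942 and 0.417). Farther off, and named after their values were seen, 3 scarce RNAs had early changes of over 2 log2 units with wide errors, F15D3.4 at -3.12 ± 1.27, Y47H9B.2 at -2.93 ± 1.08 and F35E2.5 at 2.29 ± 0.97 (edgeR, adjusted p = 0.641, 0.631 and 0.644). Around cyn-8, 0 of 20 within 231 kb were called in the double mutant by any of the 3 tools in either window, with 1 and 1 at an unadjusted p under 0.05. The nearest, ensh-1 and nlp-14, changed by 0.04 ± 0.17 and -0.16 ± 0.10 late (adjusted p = 0.954 and 0.549).

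Around parg-2, 2 of 20 neighbours were called higher and 1 lower in let-7(n2853) in each window by edgeR, where 18.5% of all genes were called early and 23.0% late. DESeq2 called 3 in each window and limma 6 early and 5 late, and 6 in each had an unadjusted p under 0.05. The largest of these changes were -0.30 ± 0.05 for snrp-3 and 0.37 ± 0.07 for F21D5.5, both late (edgeR, adjusted p = 4.27e-05 and 0.000671). The nearest, ttll-11 and ipla-5, changed by 0.23 ± 0.14 and 0.38 ± 1.08 early (adjusted p = 0.288 and 0.851). The paralog parg-1 is the farthest of them on its right, 33.8 kb away from start to start, and changed by 0.16 ± 0.06 early and 0.08 ± 0.06 late (adjusted p = 0.0588 and 0.368). How reads shared by paralogs were counted is not given.

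**Figure D4:**
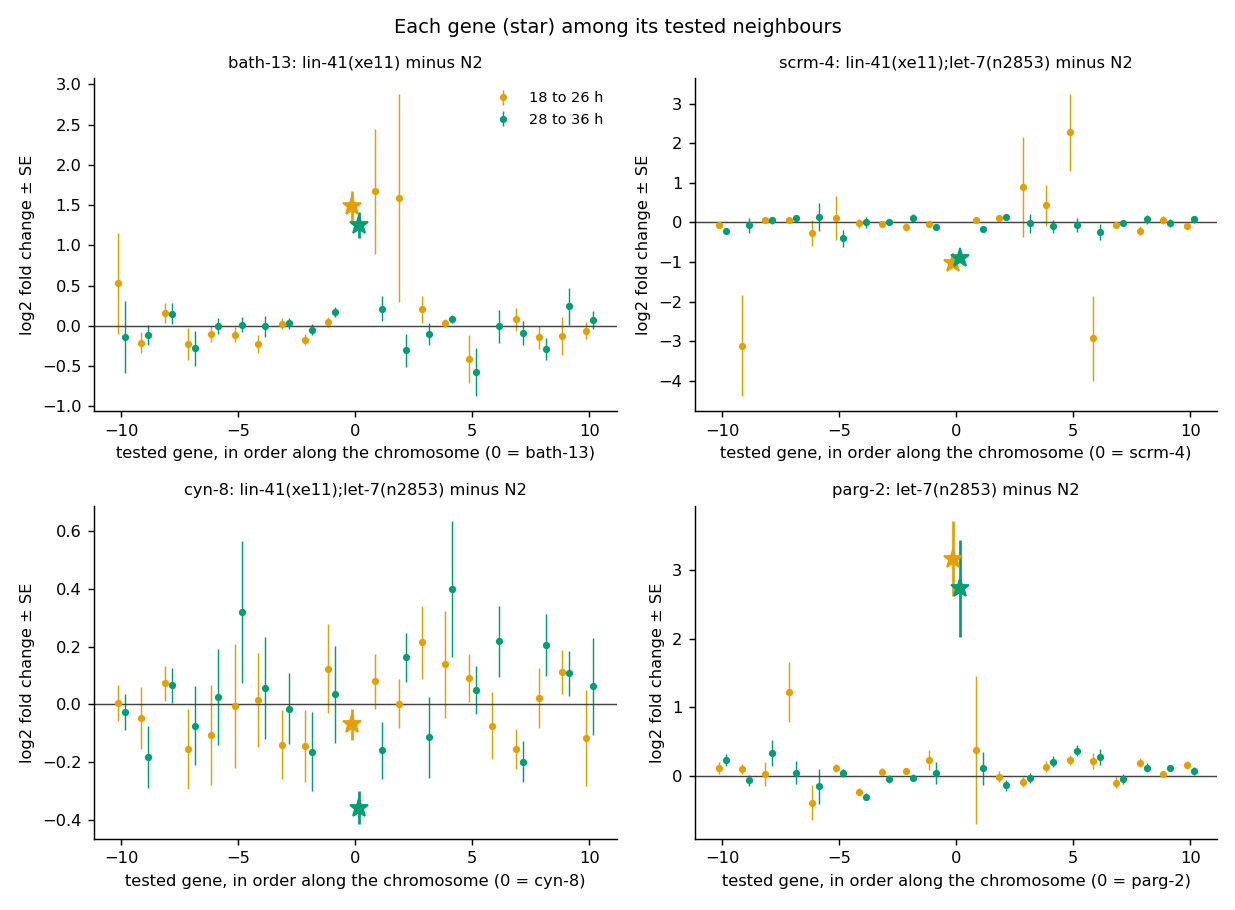
Fitted log2 fold change ± SE (vertical) of each gene (star) and of the 10 tested genes on either side (points), in order along the chromosome (horizontal), in the strain that stood apart, relative to N2, early and late. The early point of msrp-5, beside bath-13, is not drawn, since its SE was 3542. No neighbour of bath-13, scrm-4 or cyn-8 was called; the wide bars belong to scarce RNAs.

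The other genes of the families and pathways of the 4 were counted in the strain that stood apart. So few genes were called in all, 0.0677% early and 0.361% late in lin-41(xe11) and 0.143% early and 0.888% late in the double mutant, that a count of 0 in a list of this size is no different from the background and says nothing particular of the list. Of 21 other MATH-BTB genes, 0 were called in lin-41(xe11) by edgeR, DESeq2 or limma in either window, with 2 early and 0 late at an unadjusted p under 0.05, and their median change was -0.03 early and 0.03 late. The family member with the smallest p was bath-24, at -0.66 ± 0.22 early (adjusted p = 0.545). Of 15 genes of the CUL-3 ligase and its neddylation, 0 were called by any of the 3 tools, with 1 early and 3 late at an unadjusted p under 0.05. The scaffold gene cul-3 itself changed by -0.09 ± 0.04 early and 0.11 ± 0.04 late (adjusted p = 0.724 and 0.253). The median change of all genes tested was -0.00 early and -0.02 late in lin-41(xe11).

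Of 9 other scramblase and anoctamin genes, 0 were called in the double mutant by any of the 3 tools in either window, also with 0 at an unadjusted p under 0.05. Their median change was 0.07 early and -0.17 late, against -0.01 and -0.03 over all genes tested. Early, scrm-5, scrm-6, scrm-7 and scrm-8 averaged only 0.0 to 0.039 CPM in the double mutant and in N2. The early count and median therefore say nothing of those genes. Of 22 genes of phosphatidylserine exposure and corpse clearance, 0 were called and 0 had an unadjusted p under 0.05, with a median of -0.03 in both windows. Of 16 other cyclophilin genes, 0 were called in the double mutant by edgeR or limma in either window, with 2 early and 4 late at an unadjusted p under 0.05. DESeq2 called 1 late, cyn-1, which edgeR put at 0.22 ± 0.06 (adjusted p = 0.105), the opposite side to cyn-8. Of 8 genes of the FKBP class, the other large class of prolyl isomerases, 0 were called by any of the 3 tools, with 0 early and 2 late at an unadjusted p under 0.05.

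Of 4 other genes of poly(ADP-ribose) metabolism in let-7(n2853), 1 was called lower in each window and 0 higher by edgeR, while DESeq2 called 1 in each window and limma 2 early and 1 late. It was parp-1, which encodes a polymerase that builds the chains and changed by -0.27 ± 0.08 early and -0.35 ± 0.08 late (edgeR, adjusted p = 0.0228 and 0.00343). The polymerase gene parp-2 changed by 0.03 ± 0.06 early and the tankyrase gene tank-1 by -0.07 ± 0.08 (adjusted p = 0.727 and 0.577). Of 21 DNA damage genes, 2 were called higher and 0 lower early, and 2 higher and 1 lower late by edgeR. DESeq2 called 3 early and 4 late, and limma 4 early and 7 late. xpa-1, a nucleotide excision repair gene, was higher in both windows, by 0.21 ± 0.07 and 0.25 ± 0.07 (edgeR, adjusted p = 0.0377 and 0.0122). cku-70, an end-joining gene, was higher early, lig-4, its ligase, late, and the checkpoint gene mrt-2 was lower late by -0.31 ± 0.08 (edgeR, adjusted p = 0.00346). Both counts are to be read against the 18.5% and 23.0% of all genes called in that strain.

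For each member the 3 tested genes with the most similar log2 CPM over all 43 libraries were named, as a description. The libraries share strains, hours and depth. The genes most like parg-2 were irg-1, which was first known as a gene induced by bacterial infection in the worm (r = 0.911), pgp-5, an ABC transporter gene of the P-glycoprotein class (r = 0.899), and C06B3.7 (r = 0.881). In let-7(n2853) they had their highest level at or beside the same hours: irg-1 stood at 77.4 CPM at 18 h, 120 CPM at 24 h and 55.1 CPM at 30 h, and at 12.3, 15.1 and 12.95 CPM at 20, 28 and 36 h. In N2 irg-1 ran from 6.39 to 21.7 CPM. pgp-5 stood at 129, 294 and 121 CPM in let-7(n2853) at 18, 24 and 30 h, against 24.5, 35.9 and 10.1 CPM in N2 at those hours. Shared high hours were not particular to let-7(n2853). In lin-41(xe11) at 22, 24 and 30 h, parg-2 stood at 5.45, 3.37 and 2.04 CPM. At those hours irg-1 stood at 47.4, 30.7 and 31.6 CPM, and pgp-5 at 74.4, 79.6 and 65.6 CPM. In N2 parg-2, irg-1 and pgp-5 were all highest at 22 h, at 2.67, 21.7 and 45.0 CPM. These genes were picked for their likeness to parg-2 over the same libraries, so the shared peaks follow from the choice and are no separate evidence.

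**Figure D5:**
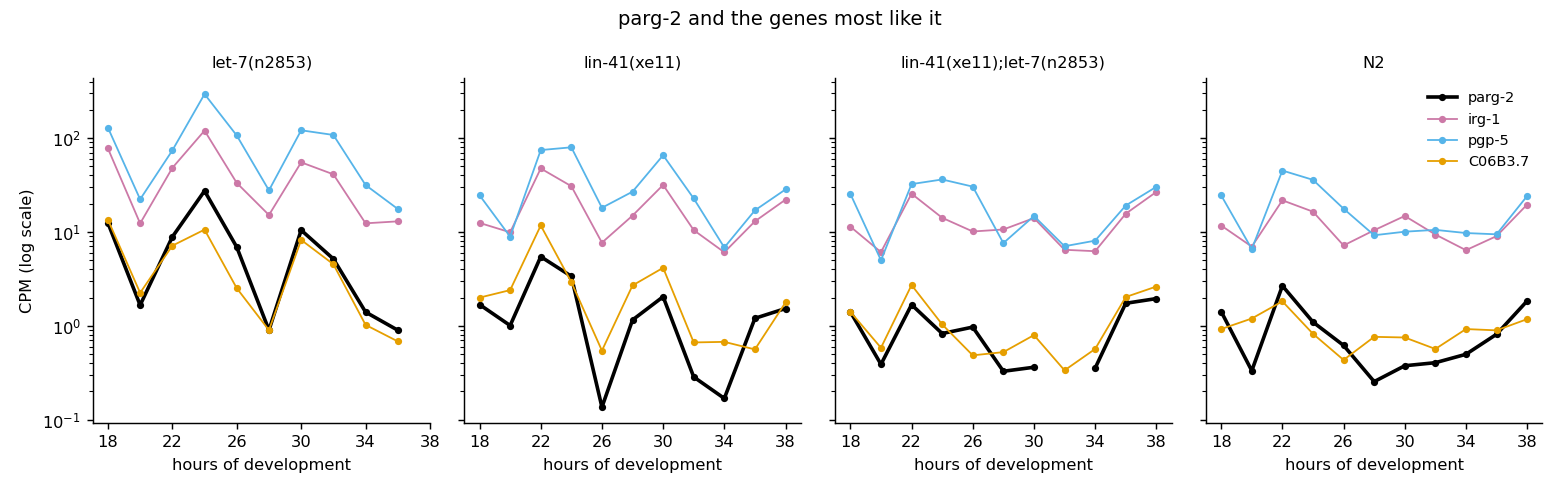
Level of parg-2 and of the 3 genes most like it, in CPM on a log axis (vertical), against hours of development (horizontal), 1 panel per strain; the double mutant library of 32 h, with 0 parg-2 reads, has no point. In let-7(n2853) all 4 genes are high at 18, 24 and 30 h and low at 20 and 28 h.

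The other members were set beside their most similar genes in the same way. scrm-4 was most like WBGene00020164 (r = 0.892), ppfr-4 (0.850) and dhs-7 (0.849). bath-13 was most like WBGene00020164 (0.789), scrm-4 itself (0.786) and Y82E9BR.18 (0.757). cyn-8 was most like baz-2 (0.945), Y67D8C.9 (0.942) and rig-3 (0.941), and 70 genes reached an r over 0.9 with it. WBGene00020164, which the tables used give no symbol, ran from 1.72 to 7.68 CPM in let-7(n2853), 3.33 to 11.4 CPM in lin-41(xe11), 1.75 to 7.88 CPM in the double mutant and 2.73 to 9.23 CPM in N2, so its strains overlapped. baz-2 had medians of 58.9 CPM in let-7(n2853), 46.6 CPM in lin-41(xe11), 44.9 CPM in the double mutant and 50.2 CPM in N2.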

How the data were processed

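Per the labels' protocols, ribosomal RNA was removed from whole-worm RNA by Ribo-Zero, and ScriptSeq v2 was the library kit. The authors deposited raw counts per gene for 20182 genes and a table of log2 values; checked against the counts, the deposited log2 values were counts scaled to a common total (26.1 M in let-7(n2853), 12.02 M in the other strains) plus a pseudocount of 8. The aligner, counter, build and strand setting are not given in the sources used here. A symbol was found for 18778 IDs, and 19513 were in the Ensembl WBcel235 annotation.

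The tests took the 13295 genes whose CPM averaged 1 or more in the 40 libraries sampled at 18 to 36 h. Counts were scaled by TMM and fitted with edgeR 4.0.16 (R 4.3.3) by its quasi-likelihood test, with the hour as a factor, which pairs the strains and serves as the replicate block, and 1 term for each mutant in each window. The model had 16 columns and 24 residual degrees of freedom, and the common dispersion was 0.0178. Trends were linear in the hour, fitted within each strain. Adjusted p is Benjamini-Hochberg over all genes tested, with 0.05 as the threshold. Alternatives were DESeq2 1.42.0 and its size factors, total counts, no CPM minimum, no replicate block, age in place of the hour, limma 3.58.1 on the deposited log2 values, other trend models and each hour left out. The age was the point, from 18 to 38 h, of cubic splines through the N2 libraries with the highest correlation. The correlation took all tested genes but the members, and the age entered the model as a natural spline with 5 degrees of freedom. For limma the deposited log2 values were centred on the median gene of each library. After that, their floor lies lower in let-7(n2853) than in the other strains, which affects limma calls of scarce genes in let-7(n2853). The fits were tested on simulated data. Duplicate libraries were looked for in 903 pairs and none was found (lowest chi-square over its degrees of freedom 4.44). Poisson intervals cover counting error only.

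The members, gene lists and tests were chosen with earlier results of these data known. Genes are named by a rule: all members, the 3 genes most like each, the 2 nearest neighbours and up to 2 with the largest called change, up to 4 genes per list with the smallest p, and up to 5 genes per strain and direction with the largest gaps.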

Additional observations from a re-analysis of the deposited data

Results flagged for a closer look

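Among 32 groups of 5 libraries (4 genes, 4 strains, 2 windows), 2 held a library whose gap to the next was over 0.71 of the group's range, and chance alone flags about 1 group in 20. bath-13 in N2 from 18 to 26 h had its highest level at 26 h, 1.30 CPM, with the other 4 libraries between 0.615 and 0.715 CPM; bath-13 rose with time in N2, and 26 h is the last hour of the window. parg-2 in the double mutant from 28 to 36 h had its highest level at 36 h, 1.74 CPM, with the other 4 between 0 and 0.362 CPM; the double mutant's 38 h library, at 1.95 CPM, stood beside it.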

How the results depend on the processing

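In the strain that stood apart, the changes of bath-13, scrm-4 and parg-2, and that of cyn-8 late, kept their direction under every alternative run. The early change of cyn-8 (-0.07) was smaller than its spread between hours (SD 0.14), so its direction is not established. Except for bath-13 early on the deposited log2 values (0.99, against 1.49), the changes of the 4 genes in those strains moved by less than the spread between hours. That of parg-2 late was 1.30 on the deposited log2 values, against 2.73. Their pseudocount of 8 shrinks the changes of scarce RNAs. It was added after scaling to 26.1 M in let-7(n2853) and 12.02 M in the other strains. With the centring used for limma, it therefore also lowers scarce RNAs in let-7(n2853) against N2. In let-7(n2853), bath-13 early was -0.43 on these values, against -0.07, a move beyond the spread between hours. The parts of shrinkage and scaling in the parg-2 value were not separated. Leaving out each hour in turn gave 1.44 to 1.54 early and 1.12 to 1.31 late for bath-13, -1.05 to -0.99 and -0.94 to -0.88 for scrm-4, -0.11 to -0.03 and -0.41 to -0.32 for cyn-8, and 2.67 to 3.58 and 1.97 to 3.26 for parg-2. The trends of bath-13, scrm-4 and cyn-8 were called in all 4 strains under every alternative; those of parg-2 were called only with an 8 h rhythm added, in let-7(n2853) (-0.28) and lin-41(xe11) (-0.24).

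Counts of called genes moved more, so the shares set beside the members depend on the model; the cause was not tested. Without the replicate block they were 505 early and 566 late in let-7(n2853), 1 and 1 in lin-41(xe11), and 3 and 1 in the double mutant, against 2462 and 3064, 9 and 48, and 19 and 118 with it. Pairing by hour did not change the sign of any change of a member in its own strain. With age in place of the hour they were 2037 late in let-7(n2853), 31 late in lin-41(xe11), and 12 early and 61 late in the double mutant. DESeq2 gave 25 and 75 in lin-41(xe11) and 49 early in the double mutant, limma 4312 early in let-7(n2853) and 28 late in lin-41(xe11), and total counts 11 early in the double mutant. Leaving out each hour gave 1503 to 2495 early and 1967 to 3148 late in let-7(n2853), 4 to 10 and 7 to 50 in lin-41(xe11), and 4 to 23 and 24 to 133 in the double mutant; the lowest late counts of lin-41(xe11) and the double mutant came without 34 h, their lowest early counts without 24 h (for lin-41(xe11) also without 22 h), and those of let-7(n2853) without 26 h and without 36 h.

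Of genes with no overlap between 1 strain and the others, 7, 25 and 1 were found with any gap and 0 at 2-fold or 4-fold. Hour by hour, the counts were 263 higher and 418 lower in let-7(n2853), 2 higher in lin-41(xe11), 1 higher and 1 lower in the double mutant, and 3 higher and 2 lower in N2. Few reads limit bath-13 in all strains and parg-2 outside let-7(n2853).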
